A study of Mus musculus with 6 samples.

Results

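Cells take up amino acids through carrier proteins of the plasma membrane, and 10 of the genes for these carriers were examined in hearts that carry extra glucose transporter and in control hearts. They comprise the cationic amino acid transporters Slc7a1 and Slc7a2, the light chains Slc7a5, Slc7a6 and Slc7a8 with their shared heavy chain Slc3a2, the sodium-coupled carriers Slc38a2, Slc38a4 and Slc1a5, and the uniporter Slc43a1. The genes were named by function, with earlier results of these data known. Every probe set of the array whose annotation gives exactly 1 gene symbol, that of a member, was taken. This gave 20 probe sets of 34945 with a single symbol and all 10 genes of 18193.

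Left ventricle samples, 3 WT and 3 Glut1-TG, were each profiled on an Affymetrix mouse expression array. All came from males of the FVB strain on standard chow, 11 to 12 weeks old per the labels, and by the methods of the study Glut1-TG mice express human Glut1 from the alpha-myosin heavy chain promoter, so that the transgene is active in cardiomyocytes. The labels number 3 replicates in each group without saying that each is a separate mouse, so p-values measure the spread between these arrays. Values are linear signal intensities that the authors scaled per array, and the number of arrays limits their precision.

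Glutamine, leucine, arginine and other amino acids cross the membrane by carriers of different kinds. Cationic carriers bring in arginine and lysine. The L-type light chains, joined to the glycoprotein encoded by Slc3a2, exchange large neutral amino acids such as leucine, isoleucine and valine for others, among them glutamine that sodium-coupled carriers have concentrated in the cell. Leucine and arginine taken up in this way are known activators of mTOR complex signaling, and the transcription factor ATF4 is known to raise several of the genes when amino acids are short.

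Of the 10 genes, 1 fell in Glut1-TG hearts, 0 rose, and 7 were tested without passing. Slc7a1, the main arginine and lysine carrier of many cells, had a level in Glut1-TG hearts that was 0.574 times that in WT hearts, a call that 11 of 15 other settings did not keep, and the neutral and branched-chain carriers did not pass. Genes were tested by limma with an intensity trend on log2 signal, with p adjusted by the Benjamini-Hochberg method over 13178 genes, and a gene was read from the brightest of its probe sets. The background in this test was 0.599% of genes that fell and 0.258% that rose, or 79 and 34 genes. This balance depended on the scaling: 66 fell and 48 rose after quantile normalization, and 25 fell and 61 rose with each array centred on cardiomyocyte markers. Slc38a4 and Slc43a1 lay under the filter and were not tested as genes. The filter left out the lowest 40% of probe sets by mean log2 signal, a cut that matches a signal of 115. A set under it can therefore have a linear mean above that value. The members had a median log2 fold change of -0.06, beside 0.02 for all genes tested, with 5 below 0 and 3 above it.

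**Figure D1:**
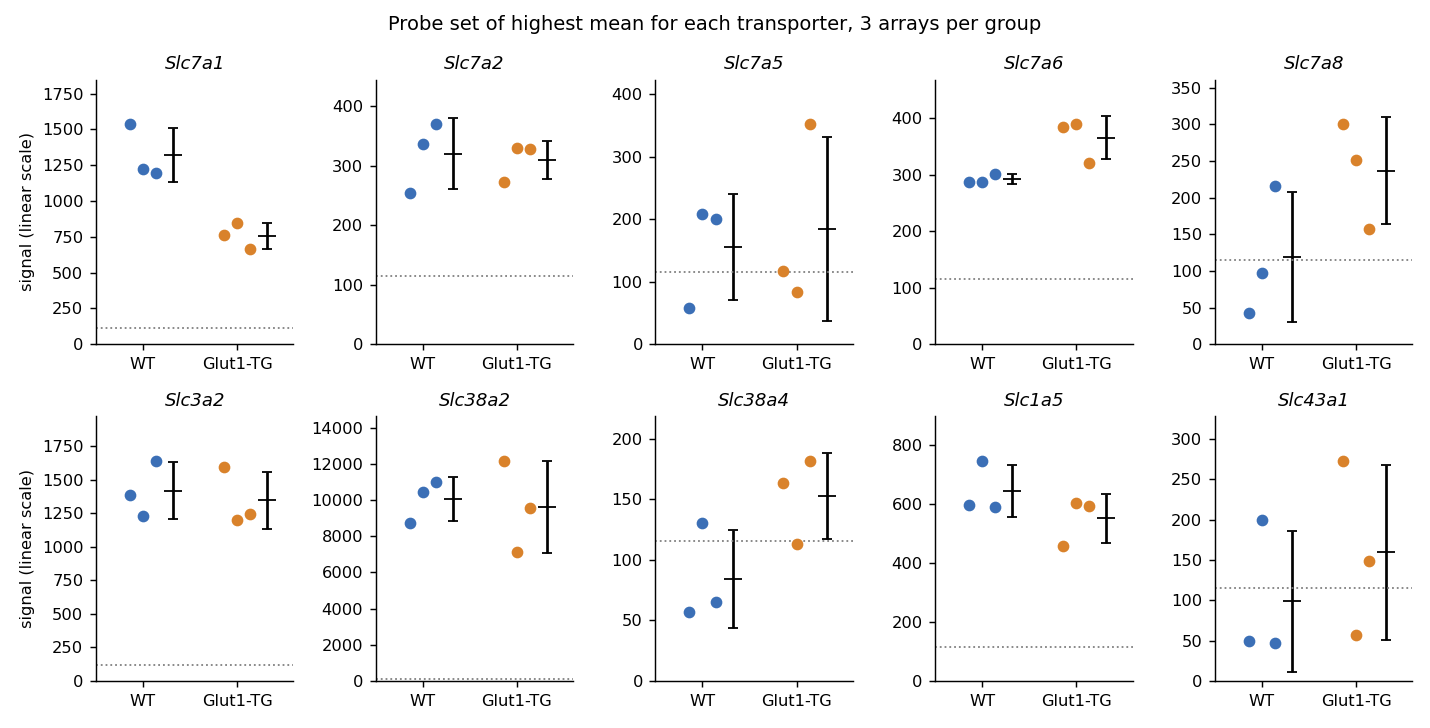
Signal (vertical axis, linear scale, from 0) of the probe set of highest mean for each of the 10 transporters, with 1 point per array, blue for WT and orange for Glut1-TG, and bars for the mean and SD of 3 arrays. The dotted line is the filter at a signal of 115; Slc7a1 and Slc7a6 are the members whose groups do not overlap, in opposite directions.

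As a check of the labels, the mouse Glut1 gene Slc2a1 had a signal of 489 ± 70.0 (SD, n = 3) in WT and 787 ± 55.4 (SD, n = 3) in Glut1-TG hearts, with an adjusted p of 0.11 from limma; whether its probe set reads the human transgene was not tested. All 14 cardiomyocyte markers, troponins and myosins among them, were measured, with summed signals of 544828 to 665815 in WT and 513139 to 545062 in Glut1-TG hearts. Their median log2 fold change was -0.18, with 14 of 14 below 0 and 0 past limma (4 lower at an unadjusted p under 0.05 and 0 by the methods' t-test after adjustment). Lymphocyte markers had low sums, 1323 to 1443 in WT and 1682 to 1892 in Glut1-TG hearts over 5 tested of 8, with Cd3e and Cd4 not among them, and 0 past limma (by unadjusted p under 0.05, 1 higher, and by the methods' t-test after adjustment 0). Their part in the results below was not tested. The atrial list also held Myh7, which is not particular to the atria. Of its 5 genes tested 2 rose, Myl4 and Myl7 (limma, adjusted p = 0.0085 and 0.041). Myl7 had 14.2 to 90.5 in WT, under the filter signal, and 315 to 713 in Glut1-TG hearts. Nppa, Bmp10 and Myh7 did not pass. Of the endothelial, fibroblast, smooth muscle and macrophage markers 0 passed limma. By unadjusted p 1 endothelial and 1 smooth muscle marker were lower, and 0 by the methods' t-test after adjustment. Of all genes, 11.3% had an unadjusted p under 0.05 by limma. The array medians were 171 to 188, apart from Glut1-TG replicate 1 at 213. In whole ventricle, fewer cells of a type and less RNA per cell cannot be told apart.

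Slc7a1 encodes CAT-1, which carries arginine, lysine and ornithine into the cell without sodium. Its signal was 1539, 1222 and 1199 in the WT arrays 1 to 3 and 762, 844 and 663 in the Glut1-TG arrays 1 to 3. The groups did not overlap: the lowest WT array was well above the highest array of the transgenic hearts. The mean fell from 1320 ± 190 (SD, n = 3) to 757 ± 90.6 (SD, n = 3), which is -0.80 on the log2 scale with a standard error of 0.15 and a 95% confidence interval of -1.12 to -0.48 (limma, adjusted p = 0.041). As a ratio, WT over Glut1-TG was 1.74 (1.39 to 2.18, the same interval). The direction was the same in all 15 other settings tried, with log2 fold changes of -0.88 to -0.44, but the call was lost in 11 of them, and the adjusted p ran from 0.033 to 0.37. Leaving out a WT array lost it in each case (adjusted p = 0.15, 0.12 and 0.12 for replicates 1 to 3), as did leaving out Glut1-TG replicate 1 or 3 (limma, 0.073 and 0.12) and the replicate number as a block (0.065). Cardiomyocyte markers lay in the same direction. With each array centred on them, which moved the median of all genes to 0.20, Slc7a1 had a log2 fold change of -0.61 (adjusted p = 0.13).

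**Figure D2:**
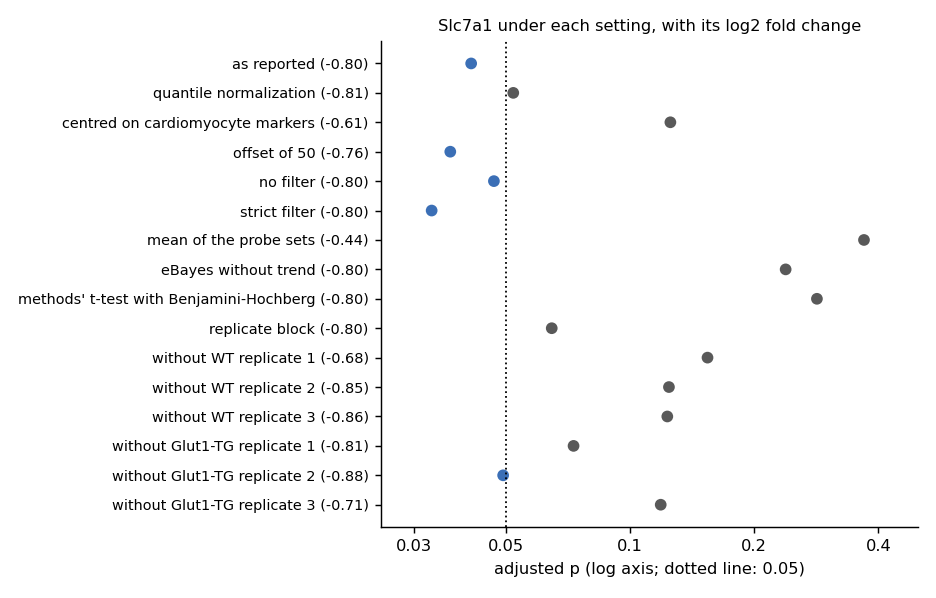
Adjusted p of Slc7a1 (horizontal axis, log scale, dotted line at 0.05) under the reported setting and 15 others (rows), with the log2 fold change of each in brackets. Blue points passed; the log2 fold changes are all below 0, while 11 of the 15 other settings have an adjusted p above 0.05.

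The array reads Slc7a1 with 3 probe sets, which did not give the same picture. The set used above is 1454992_at. A second one, 1454991_at, was designed on the same cDNA source sequence and had signals of 780, 694 and 662 in the WT arrays and 373, 578 and 486 in the Glut1-TG arrays. Here too the groups did not overlap, with -0.59 on the log2 scale (standard error 0.19) and a WT level 1.51 times that of Glut1-TG (95% confidence interval 1.13 to 2.01). The third, 1421533_at, was designed on a different source sequence and had signals of 376, 238 and 259 in WT and 355, 298 and 248 in Glut1-TG hearts. Its groups overlapped fully, with 0.06 on the log2 scale (standard error 0.27) and an interval of -0.53 to 0.65. Whether the change differs between the sets was not tested. Which transcripts or ends of the gene the 3 sets read was not tested. When all 34945 single-symbol probe sets were tested without a filter, 1454992_at had an adjusted p of 0.068, 1454991_at 0.38 and 1421533_at 0.97 (limma), and 0 of the 20 probe sets of the members passed, with 2 at an unadjusted p under 0.05 and 0 by the methods' t-test after adjustment. The background of that test was 0.243% of probe sets in either direction, and 8.62% at an unadjusted p under 0.05. As the mean of its probe sets, Slc7a1 had a log2 fold change of -0.44 (adjusted p = 0.37).

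**Figure D3:**
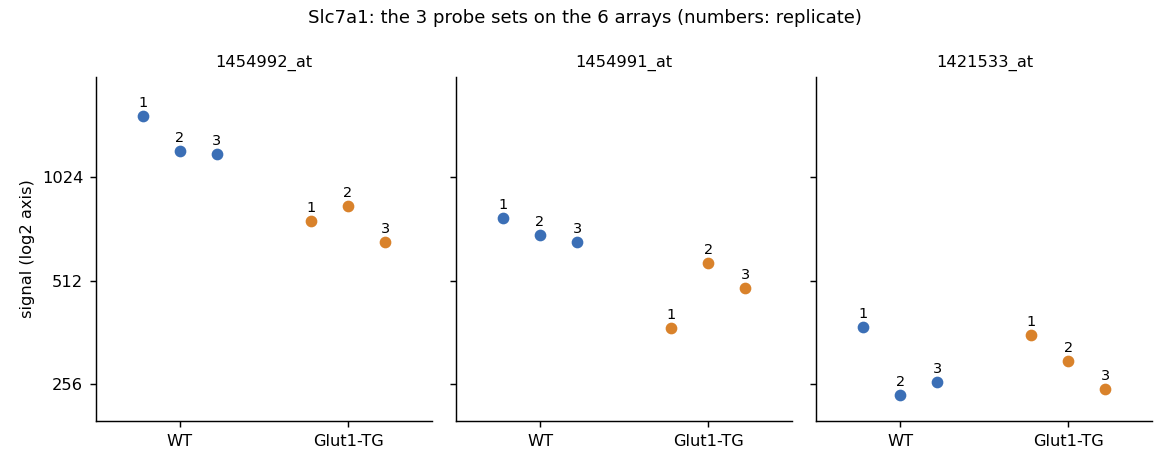
Signal (vertical axis, log2 scale) of the 3 Slc7a1 probe sets on the 6 arrays, numbered by replicate, blue for WT and orange for Glut1-TG. The groups separate for 1454992_at (663 to 844 against 1199 to 1539) and 1454991_at (373 to 578 against 662 to 780) and overlap for 1421533_at (248 to 355 against 238 to 376).

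Slc7a6 was the other member with separate groups, and in the opposite direction. It encodes y+LAT2, a light chain that exchanges intracellular arginine for extracellular glutamine or leucine with sodium. Its signal was 287, 287 and 302 in the WT arrays and 384, 390 and 321 in the Glut1-TG arrays, so that each Glut1-TG array lay above each WT array, replicate 3 by the smallest step. On the log2 scale this is 0.32 with a standard error of 0.20 and an interval of -0.14 to 0.77, which did not pass (limma, adjusted p = 0.60). Its second probe set, designed on the same source sequence, had 0.33 (standard error 0.29) with overlapping groups, 214 to 403 in WT and 309 to 451 in Glut1-TG hearts. The 2 members with separate groups, of 8 tested, stand against a background of 17.4% of genes in either direction.

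The sequence around the transcript start is shown for these 2 members because they are the ones whose groups separated. The motifs are those of CREB and the Krüppel-like factors, since the study examined CREB as a regulator of the Klf15 gene. It is not taken here that either acts on the transporters. CREB is known to bind the short site TGACG and the full site TGACGTCA, and Krüppel-like factors bind CACCC boxes. RefSeq windows (GRCm38.p6) of 250 bases before to 50 after a start were matched for 7 of the 10 members, 11 windows in all, and none was matched for Slc7a2, Slc7a5 and Slc1a5. Capitals mark TGACG and CACCC on either strand (also read as CGTCA and GGGTG), and the marked motifs do not overlap each other. The Slc7a1 window is chr5:148399855-148400154 on the minus strand and the Slc7a6 window chr8:106168604-106168903 on the plus strand.
Slc7a1: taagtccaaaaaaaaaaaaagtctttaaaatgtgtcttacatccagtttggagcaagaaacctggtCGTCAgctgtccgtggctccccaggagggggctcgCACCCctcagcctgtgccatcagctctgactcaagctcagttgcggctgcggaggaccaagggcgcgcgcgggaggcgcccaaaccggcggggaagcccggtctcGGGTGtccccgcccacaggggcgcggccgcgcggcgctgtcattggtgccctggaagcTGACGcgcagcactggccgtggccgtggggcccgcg
Slc7a6: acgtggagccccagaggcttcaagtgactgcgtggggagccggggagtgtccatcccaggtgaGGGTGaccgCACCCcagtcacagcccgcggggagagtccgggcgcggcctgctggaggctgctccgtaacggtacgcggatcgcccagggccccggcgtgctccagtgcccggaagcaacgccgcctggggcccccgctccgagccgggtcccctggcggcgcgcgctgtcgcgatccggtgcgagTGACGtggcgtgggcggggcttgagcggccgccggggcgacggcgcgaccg

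The Slc7a1 window holds 2 short CREB sites and 2 CACCC boxes, and the Slc7a6 window 1 short CREB site and 2 boxes, so the member that fell and the one that lay higher carry the same kinds of motif. A further Slc7a1 window at another start holds neither. A further Slc7a6 window overlaps the printed one and holds the same short CREB site and 1 of the same boxes. Among all 32851 RefSeq windows, 20.8% hold a short CREB site and 57.5% a CACCC box. Among the 11 windows of the members 5 and 8 do, with the shared Slc7a6 site and box counted in both of its windows. By gene, 4 of the 7 members with a window have a short CREB site and all 7 a CACCC box. The share by gene over all genes was not computed, and a gene with several windows has more chances to hold a motif. The counts by gene therefore cannot be set against the shares by window. The full CREB site is in 1.79% of all windows and in 0 of the 11. A core of the amino acid response element, TGATGNAA on either strand, is in 3.97% of all windows and in 0 of the 11. At such low shares 0 of 11 windows carries little information, and sequence outside the windows was not searched. These matches describe letters in these windows and are no measure of binding.

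The partners that carry leucine, isoleucine and valine did not pass. Slc3a2, the heavy chain that brings the L-type light chains to the membrane, had a signal of 1420 ± 210 (SD, n = 3; 1227 to 1644) in WT and 1347 ± 214 (SD, n = 3; 1202 to 1593) in Glut1-TG hearts. The groups overlapped almost entirely, with a log2 fold change of -0.08 (standard error 0.15), and the Glut1-TG level was 0.948 times that of WT (95% confidence interval 0.754 to 1.19). Slc7a5, the L-type light chain LAT1, had 156 ± 85.0 (58.0 to 209) in WT and 185 ± 147 (84.2 to 353) in Glut1-TG hearts. These are signals close to the filter, with 2 of 6 arrays under it, and the interval of its ratio, 0.404 to 3.13, leaves the level of Slc7a5 undetermined at this precision. Slc7a8, the L-type light chain LAT2, had 119 ± 88.8 (42.1 to 216) in WT and 237 ± 72.8 (158 to 301) in Glut1-TG hearts. Its ratio of 2.38 was the largest among the members tested. Like the other ratios it comes from mean log2 signals, so it differs from the ratio of the linear means. The groups overlapped and the interval, 0.966 to 5.87, includes 1 (adjusted p = 0.47 from limma). Its WT values of replicates 1 and 2 lie under the filter. On the log2 scale its difference was 0.66 without WT replicate 1 and 1.84 without WT replicate 3. Slc43a1, the uniporter LAT3, had 98.5 ± 87.1 (46.8 to 199) in WT and 159 ± 109 (56.3 to 273) in Glut1-TG hearts on its only probe set, with 3 of 6 arrays under the filter, and the groups overlapped.

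The sodium-coupled carriers, which supply the glutamine and alanine side of this exchange, did not pass either. Slc38a2, the glutamine and alanine carrier SNAT2, had a signal of 10053 ± 1203 (8704 to 11014) in WT and 9615 ± 2535 (7120 to 12187) in Glut1-TG hearts, and the Glut1-TG group spanned the WT group. The ratio was 0.939 (95% confidence interval 0.718 to 1.23). Its other probe sets had log2 fold changes of -0.25 (standard error 0.17) and -0.84 (standard error 0.45), the second on a dim set of 80.8 to 417. All 3 lie below 0, and none of them separated the groups. Slc1a5, the neutral amino acid exchanger ASCT2 that brings in glutamine, had 644 ± 89.0 (590 to 746) in WT and 550 ± 81.7 (456 to 601) in Glut1-TG hearts. Its ratio was 0.854 (95% confidence interval 0.651 to 1.12), with a second, dim probe set at a log2 fold change of -0.21 (standard error 0.44). Slc38a4, the sodium-coupled carrier SNAT4, had 98.1 ± 28.5 (78.7 to 131) in WT and 125 ± 29.5 (91.0 to 145) in Glut1-TG hearts on one probe set and 84.2 ± 40.6 (56.7 to 131) and 153 ± 35.5 (113 to 182) on the other. Both sets lie under the filter with overlapping groups, and their log2 fold changes were 0.35 (standard error 0.47) and 0.93 (standard error 0.50).

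Slc7a2, the second cationic carrier of the set (CAT-2), had 320 ± 59.6 (255 to 370) in WT and 310 ± 32.5 (272 to 329) in Glut1-TG hearts. Unlike Slc7a1 it had a ratio close to 1, 0.975, with a 95% confidence interval of 0.680 to 1.40; whether the changes of Slc7a1 and Slc7a2 differ was not tested. Its 3 further probe sets had signals of 4.90 to 251 and log2 fold changes of 0.49, -0.63 and -1.51 with standard errors of 0.61, 1.01 and 0.89, so they carried no usable information on its direction. Over all 20 probe sets of the members, 11 log2 fold changes lay below 0 and 9 above, 2 sets (both of Slc7a1) had all Glut1-TG arrays below the WT arrays, and 1 (of Slc7a6) had all above, beside 14.4% of all single-symbol probe sets with separate groups in either direction.

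**Figure D4:**
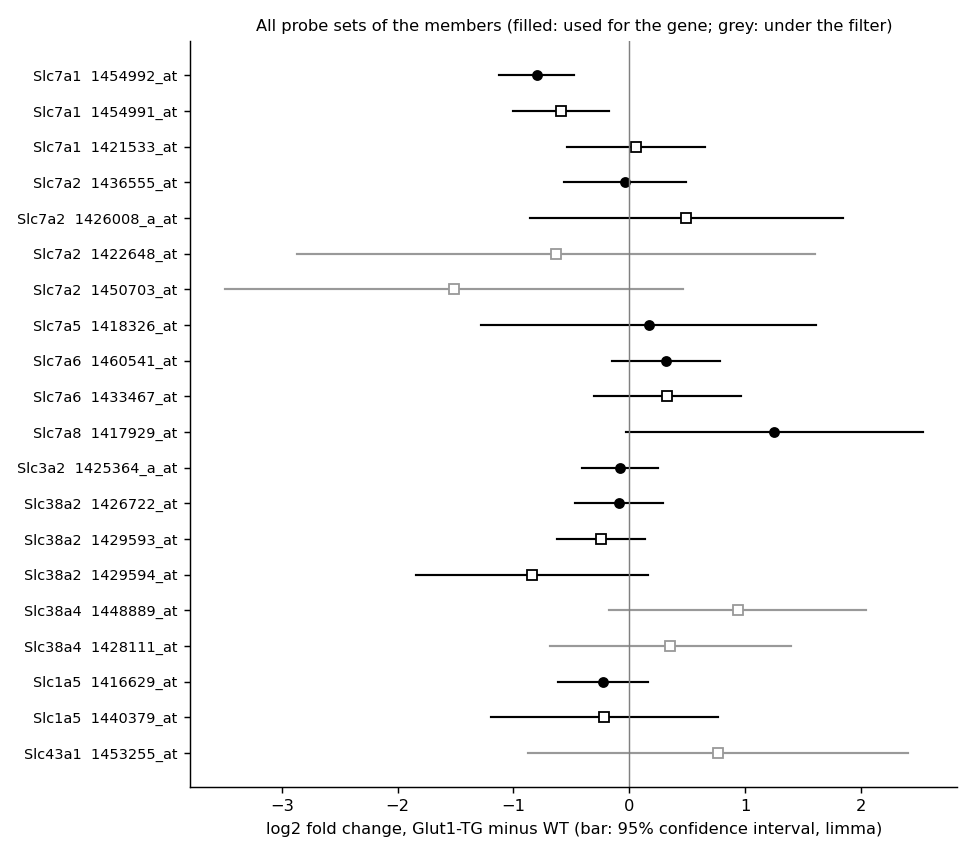
Horizontal axis: difference between Glut1-TG and WT in log2 signal, for all 20 probe sets of the members, with 95% confidence intervals from limma over 34945 probe sets. Filled circles are the sets used for a gene, open squares the others, and the 5 grey ones lie under the filter; the intervals of 2 Slc7a1 sets exclude 0, unadjusted.

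The study's methods set a minimal fold and a nominal p under 0.05 for the array but name no test for it. Here the p came from the unpaired test for normal data that their general statistics section names. At these thresholds Slc7a1 was lower and 0 members were higher, where 2.65% of all genes were lower and 3.21% higher. These are 349 and 423 of the 13178 genes left by the filter, with 1 probe set per gene, fewer than the study lists in each direction. The study's methods state no such filter, so the counts may cover unlike sets. The source of the difference was not tested. Slc7a6 missed the fold narrowly on log2 signal. It passed on linear signal, after centring on the cardiomyocyte markers and without Glut1-TG replicate 3, and Slc7a8 passed, higher, without WT replicate 3. By limma at an unadjusted p under 0.05, 1 of the 8 members tested passed, Slc7a1, beside 11.3% of all genes.

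The other amino acid carriers of the plasma membrane were described from a list of 34 genes, of which 24 were tested. By limma 0 rose and 0 fell (smallest adjusted p = 0.20). By unadjusted p under 0.05 there were 2 higher and 1 lower, beside 11.3% of all genes, and the methods' t-test after adjustment gave 0. At the study's thresholds 1 was higher (Slc43a2) and 1 lower, beside 3.21% and 2.65% of all genes. Their median log2 fold change was 0.20, beside 0.02 for all genes. Slc43a2, the uniporter LAT4 for leucine and other branched-chain amino acids, had the smallest p, with signals of 394, 412 and 419 in WT and 524, 645 and 780 in Glut1-TG hearts. All of its Glut1-TG arrays lay above its WT arrays, by 0.65 on the log2 scale (standard error 0.18; limma, adjusted p = 0.20). Slc1a1, a glutamate and aspartate carrier, had 253, 142 and 341 in WT and 469, 438 and 433 in Glut1-TG hearts. This difference of 0.95 on the log2 scale (standard error 0.31) had an adjusted p of 0.29. Slc36a2, a proton-coupled carrier of small neutral amino acids, had -0.30 (standard error 0.13) and Slc1a4, the alanine and serine carrier ASCT1, -0.66 (standard error 0.33), each with all Glut1-TG arrays below the WT arrays (adjusted p = 0.42 and 0.49). In this list the groups separated upward for 5 genes and downward for 4 of 24, beside the 17.4% of all genes given above.

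Genes of the amino acid response, which ATF4 is known to raise in amino acid shortage together with several of the carriers, were described beside them. Of 23 genes 19 were tested, and 0 rose and 0 fell by limma (smallest adjusted p = 0.14). By unadjusted p under 0.05 there were 1 higher and 1 lower, beside 11.3% of all genes, and the methods' t-test after adjustment gave 0. At the study's thresholds 0 were higher and 1 was lower (Vldlr), beside 3.21% and 2.65% of all genes. The median log2 fold change was 0.04. Vldlr, a lipoprotein receptor, had 5865 to 6353 in WT and 3933 to 5037 in Glut1-TG hearts, or -0.41 on the log2 scale (standard error 0.10; limma, adjusted p = 0.14), and Phgdh, the first enzyme of serine synthesis, had 0.47 (standard error 0.19, adjusted p = 0.40). Chac1, a glutathione-degrading enzyme, had 0.64 (standard error 0.30) and Atf5, a relative of ATF4, -0.19 (standard error 0.10). Groups separated downward for 2 of the 19 genes, Vldlr and Atf5, and upward for 0, beside 17.4% of all genes in either direction.

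**Figure D5:**
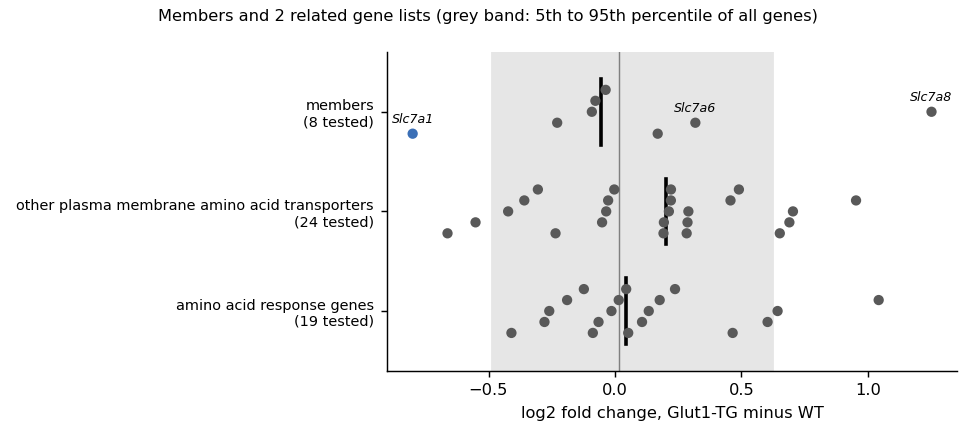
Horizontal axis: difference between Glut1-TG and WT in log2 signal, for the members and 2 related lists (rows), with 1 point per gene tested, black lines at the medians (-0.06, 0.20 and 0.04), and a grey band from the 5th to the 95th percentile of all genes (-0.49 to 0.63). The blue point is Slc7a1, which passed limma; all other points did not.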

How the data were processed

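Total RNA of 6 left ventricle samples (3 WT, 3 Glut1-TG) was labelled as biotinylated cRNA. The scans were processed with GCOS per the submitters' processing notes (version not given in the sources used here). The deposited values are intensities per probe set on a linear scale, which the authors had scaled: a 2% trimmed mean came to 500.003 on every array. Of 45101 probe sets, 64 controls were left out. Values under 1 (48 in all) were set to 1 before log2. Symbols came from the platform annotation, with 34945 probe sets of 1 symbol, 932 of several and 9160 of none, and the Entrez identifiers of all 10 members matched RefSeq. Probe sets whose names end in _a_at, _s_at or _x_at can read several transcripts.

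R 4.3.3 and limma 3.58.1 (lmFit, eBayes with trend) compared the groups without covariates at an adjusted p under 0.05, over 13178 genes or, as a second fit, over 34945 probe sets. The members, the gene lists, the motifs and the tests were chosen with earlier results of these data known, and the lists were written from general knowledge. Each array is given for members past a test or with separate groups, the others by mean and range, and from other lists up to 4 genes of smallest p (Slc43a2 and others by that rule). Alternatives were quantile normalization, centring on cardiomyocyte markers, an offset of 50 before log2, no filter or one keeping the upper 40%, the mean of a gene's probe sets, no trend, the methods' t-test, the replicate block and leaving out each array.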

Additional observations from a re-analysis of the deposited data

How the results depend on the processing

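The call of Slc7a1, and with it the count of 1 member called, became 0 after quantile normalization (log2 fold change -0.81), centring on cardiomyocyte markers (-0.61), averaged over its probe sets (-0.44), and, with the log2 fold change of -0.80 kept, by eBayes without trend (adjusted p = 0.24), the methods' t-test with adjustment (0.28) and the replicate block (0.065). Leaving out 1 array gave -0.88 to -0.68 and 0 to 1 members called. The 113 genes called in all became 68 with the mean of the probe sets, 4 without trend, 1 by the methods' t-test, 69 with the replicate block, and 44 to 86 without 1 array. Arrays of the same number had residual correlations of 0.08, -0.03 and 0.05, beside -0.11 to 0.06 for arrays of different number. With so few arrays these values cannot tell whether arrays of the same number share a batch. Of the probe sets, 1 (1454992_at) passed with the strict filter, which tests fewer. At the study's thresholds 2 members passed on linear signal, and 1 to 2 without 1 array. For the 7 other members tested, 92 of 103 values kept their direction and none passed. The 11 that turned were all of members not past the test: after centring, Slc7a2 (0.15), Slc3a2 (0.11) and Slc38a2 (0.10); as the mean of the probe sets, Slc7a2 (0.23); and without 1 array, Slc7a2 (-0.19 to 0.076), Slc7a5 (-0.44 to 0.59), Slc3a2 (-0.20 to 0.033) and Slc38a2 (-0.28 to 0.11). Signals near the filter limit what Slc7a5, Slc7a8, Slc38a4 and Slc43a1 can show.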
